A study of Arabidopsis thaliana with 12 samples.

Results

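Late embryogenesis abundant (LEA) genes encode small, very hydrophilic proteins that build up in the maturing embryo as the seed dries. LEA transcripts are stored in the dry seed, are maintained by abscisic acid (ABA) and decline as a seed commits to germination. The 10 LEA genes described here were found by symbol or locus in the supplied probe set annotation, of 13286 genes with a probe set. They were chosen with earlier results of these data known. A further 25 LEA family genes were measured and are described separately below. Each of the 10 had 1 probe set, so the choice of the brightest one had no effect. By the usual division of the Arabidopsis LEA proteins, AT2G42560, AT3G17520, AT4G21020, AT4G36600, AT5G44310 and AT3G15670 belong to the LEA_4 class of repetitive, helix-forming proteins. LEA18 (also LEA4-2, AT2G35300), LEA4-5 (AT5G06760) and AtLEA4-1 (AT1G32560) form the LEA_1 class, whose members protect enzymes against drying. AT3G22490 belongs to the seed maturation protein (SMP) class.

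Transcript levels were measured on 12 Affymetrix arrays of imbibed Arabidopsis thaliana seeds. The groups were pil5 red, pil5 dark, Col-0 red and Col-0 dark, with 3 biological replicates each. All seeds received far-red light (3.2 umol per square metre and second, 5 min), the red groups then received red light (13 umol per square metre and second, 5 min), and all were kept for 12 h in the dark on aqueous medium. In the dark groups far-red was thus the last light. Col-0 is the wild type. pil5 carries the allele Salk_072677, a single insertion allele of PIL5, a bHLH transcription factor that binds phytochrome and represses germination until red light leads to its breakdown. The annotation used gives PIL5 no probe set, so the mutated gene was not checked. The tissue was whole seed, and a lower signal can mean less RNA per cell or fewer cells of a type, which cannot be told apart here.

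Values are log2 signals, and a difference of 1 is a 2-fold change. The array medians lay between 6.08 and 6.28, and arrays of a group correlated at r from 0.968 to 0.997. In pil5, red and dark differed most in replicate number 3, where 958 probe sets differed at least 2-fold between the same-numbered arrays. The counts were 1 and 0 in replicate numbers 1 and 2. Such a count does not show whether the red or the dark array deviated. The array pil5 dark 3 had the lowest median of the 12 arrays, 6.08. Of 9 storage protein genes, which mark seeds, 1 was measured, and of 7 oil body genes 2 were. The oleosin-type gene AT3G01570 read between 11.56 and 12.95 on all arrays, and the oleosin gene OLEO3 between 8.75 and 10.19. The storage protein gene AT1G03890 read lower, between 6.76 and 8.67. Of 9 seed coat flavonoid genes, BAN and DFR were measured and read between 4.10 and 4.96, below the median of every array. Of 13 leaf photosynthesis genes LHCB4.1 and RCA were measured, with values from 6.43 to 8.51. For red in Col-0 they had changes of -0.93 (SE 0.31, adjusted p = 0.073) and -0.46 (SE 0.10, adjusted p = 0.0097), and in pil5 in the dark both fell, by 1.36 (adjusted p = 0.020) and 0.62 (adjusted p = 0.0048). Their part in the LEA changes was not tested. All 10 LEA genes read above the array median on every array.

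The first comparison asked how far the red pulse lowered LEA transcripts in wild-type seeds. In Col-0, 6 of the 10 LEA genes were lower after red, 0 were higher and 4 did not pass the test (limma, adjusted p below 0.05), where 7.33% of all 22746 probe sets were called lower and 7.81% higher. Without the dimmest 50% of probe sets, a set closer in brightness to the 10, the shares were 14.8% lower and 14.4% higher. All 10 had an unadjusted p below 0.05, as did 26.7% of all probe sets. AT2G42560 had the largest change of the 10, a 4.64-fold fall, and among those that passed AT3G17520 followed with a 2.80-fold fall and AT4G21020 with a 2.34-fold fall. AT5G44310, LEA18 and AT3G15670 also fell, by 1.97, 1.996 and 1.88-fold. All 10 had lower values on every Col-0 red array than on any Col-0 dark array, while 16.4% of all probe sets were separated in this way. The median log2 change of the 10 was -1.06, against 3e-04 over all probe sets.

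Among the LEA_4 genes, AT2G42560 read 7.99, 8.72 and 9.27 on the Col-0 red arrays and 10.72, 10.94 and 10.96 on the Col-0 dark arrays. Its red values were spread more widely than its dark values (SD 0.64 and 0.13, n = 3 each), and the gap between the groups exceeded both, with a log2 change of -2.21 (SE 0.41, adjusted p = 0.0063). AT3G17520 read 11.33, 11.66 and 11.73 on the Col-0 red arrays and 13.10, 13.27 and 12.81 on the Col-0 dark arrays. Its log2 change was -1.49 (SE 0.25, adjusted p = 0.0041), the smallest adjusted p of the 10. AT4G21020 read 10.93, 11.31 and 11.07 on the Col-0 red arrays and 12.22, 12.61 and 12.17 on the Col-0 dark arrays, a log2 change of -1.23 (SE 0.30, adjusted p = 0.020). For this gene the arrays of each group lay closer to one another than to the other group.

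AT5G44310 showed the most even response across replicate numbers, with differences of -0.96, -0.97 and -1.003. It read 10.87, 11.24 and 10.93 on the Col-0 red arrays and 11.83, 12.21 and 11.93 on the Col-0 dark arrays, a log2 change of -0.98 (SE 0.21, adjusted p = 0.011). AT3G15670 read 12.05, 12.30 and 12.41 on the Col-0 red arrays and 13.09, 13.37 and 13.04 on the Col-0 dark arrays. Its log2 change of -0.91 (SE 0.28, adjusted p = 0.049) lay just inside the threshold. AT4G36600 had a larger change and did not pass. Its arrays varied more. It read 7.55, 8.41 and 8.22 on the Col-0 red arrays and 9.34, 9.85 and 8.69 on the Col-0 dark arrays, a log2 change of -1.24 (SE 0.41, adjusted p = 0.071). Blocked on replicate number, it passed (adjusted p = 0.020).

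In the LEA_1 class, LEA18 fell, and LEA4-5 and AtLEA4-1 did not pass. LEA18 read 12.64, 12.96 and 12.73 on the Col-0 red arrays and 13.88, 13.88 and 13.55 on the Col-0 dark arrays, a log2 change of -0.997 (SE 0.28, adjusted p = 0.034). LEA4-5 read 11.37, 11.92 and 11.83 on the Col-0 red arrays and 12.54, 12.94 and 12.56 on the Col-0 dark arrays. Its change of -0.98 (SE 0.31, adjusted p = 0.056) was close to that of LEA18, and the blocked fit gave adjusted p = 0.037. AtLEA4-1 had the smallest change of the 10, -0.61 (SE 0.23, adjusted p = 0.11). It read 12.72, 13.02 and 13.01 on the Col-0 red arrays and 13.47, 13.67 and 13.45 on the Col-0 dark arrays.

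The SMP gene AT3G22490 read 7.70, 8.05 and 8.93 on the Col-0 red arrays and 9.30, 9.56 and 9.19 on the Col-0 dark arrays. The groups did not overlap, but the third red array lay only 0.26 below the dark array of its number, where the other numbers differed by 1.61 and 1.51. The change was -1.13 (SE 0.50, adjusted p = 0.18). Its 95% confidence interval ran from -2.23 to -0.02.

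**Figure D1:**
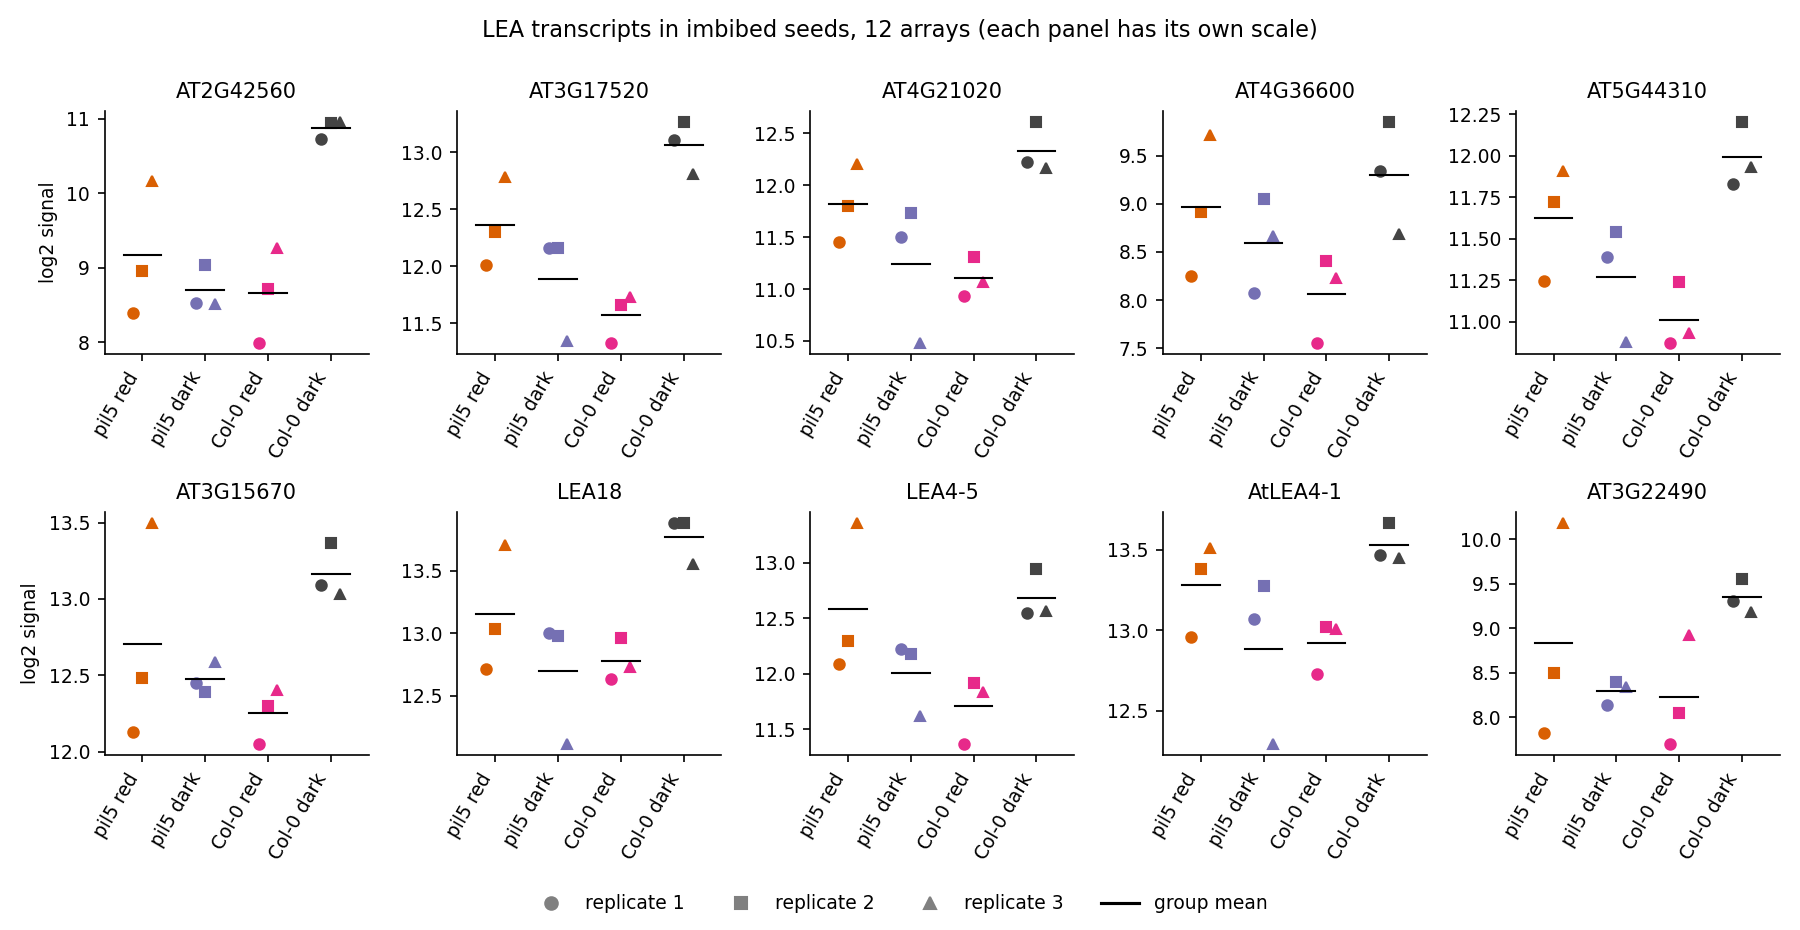
The log2 signal of each LEA gene on each of the 12 arrays, by group, with the replicate number as the symbol and the group mean as a line; panels have their own scales. Col-0 dark has the highest mean in all 10 panels, and the third pil5 red array is the highest of its group in all 10.

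The count of 6 depended on single arrays. It was 3 without Col-0 red 1, Col-0 red 3 or Col-0 dark 1, with 3.69%, 5.1% and 4.07% of all probe sets lower. Without Col-0 dark 2 it was 2 (3.14%). It was 9 without pil5 red 3 (10.1%), which enters only through the shared estimate of the spread. In the fit blocked on replicate number 8 were lower, against 13.1% of all probe sets. AT2G42560 and AT3G17520 passed without any 1 array (adjusted p up to 0.032 and 0.025). The call of AT5G44310 ended without Col-0 dark 2 (adjusted p = 0.055), and those of AT4G21020, LEA18 and AT3G15670 ended without 1 of 4, 5 and 10 arrays, with adjusted p up to 0.090, 0.12 and 0.18.

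The second comparison asked what loss of PIL5 did to the same transcripts where far-red was the last light. In pil5 seeds 5 of the 10 LEA genes were lower than in Col-0, 0 were higher and 5 did not pass, where 6.01% of all probe sets were called lower and 6.08% higher. Without the dimmest 50% of probe sets these shares were 12% lower and 12.8% higher. The 5 lower LEA genes were AT2G42560, AT3G17520, AT4G21020, LEA18 and AT5G44310. On the pil5 dark arrays 9 of the 10 lay below every Col-0 dark array (14.8% of all probe sets did), and AT4G36600 overlapped. The median log2 change of the 10 was -0.89, against 0.01 over all probe sets. This comparison shares its 3 Col-0 dark arrays with the first, so the likeness of the values is not independent.

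AT2G42560 read 8.53, 9.04 and 8.52 on the pil5 dark arrays, against 10.72 to 10.96 on the Col-0 dark arrays, a 4.52-fold fall (log2 change -2.18, SE 0.41, adjusted p = 0.0098). Every pil5 dark value lay far below the lowest Col-0 dark value. AT3G17520 read 12.16, 12.16 and 11.35 on the pil5 dark arrays, a log2 change of -1.17 (SE 0.25, adjusted p = 0.015). AT4G21020 read 11.50, 11.74 and 10.48 on the pil5 dark arrays, a log2 change of -1.09 (SE 0.30, adjusted p = 0.039). In both genes the third pil5 dark array was the lowest of its group.

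LEA18 showed the same array pattern, with 13.00, 12.98 and 12.11 on the pil5 dark arrays and a log2 change of -1.07 (SE 0.28, adjusted p = 0.031). AT5G44310 read 11.39, 11.54 and 10.87 on the pil5 dark arrays, a log2 change of -0.72 (SE 0.21, adjusted p = 0.047). The third pil5 dark array was the lowest of its group in 7 of the 10 genes, with the share over all probe sets not taken. AT3G15670 was not one of them: it read 12.45, 12.39 and 12.59 on the pil5 dark arrays, with a log2 change of -0.69 (SE 0.28, adjusted p = 0.15).

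LEA4-5, at 12.22, 12.17 and 11.62 on the pil5 dark arrays, had a change of -0.68 (SE 0.31, adjusted p = 0.20). AtLEA4-1 read 13.07, 13.28 and 12.29 there, with a change of -0.65 (SE 0.23, adjusted p = 0.10). AT3G22490, at 8.14, 8.40 and 8.34, was tightly grouped in pil5 dark and had a change of -1.06 (SE 0.50, adjusted p = 0.22). AT4G36600 read 8.07, 9.05 and 8.66, with a change of -0.70 (SE 0.41, adjusted p = 0.34) and an interval from -1.61 to 0.21. None of these 4, nor AT3G15670, passed in the blocked fit either, which called 12.2% of all probe sets lower.

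**Figure D2:**
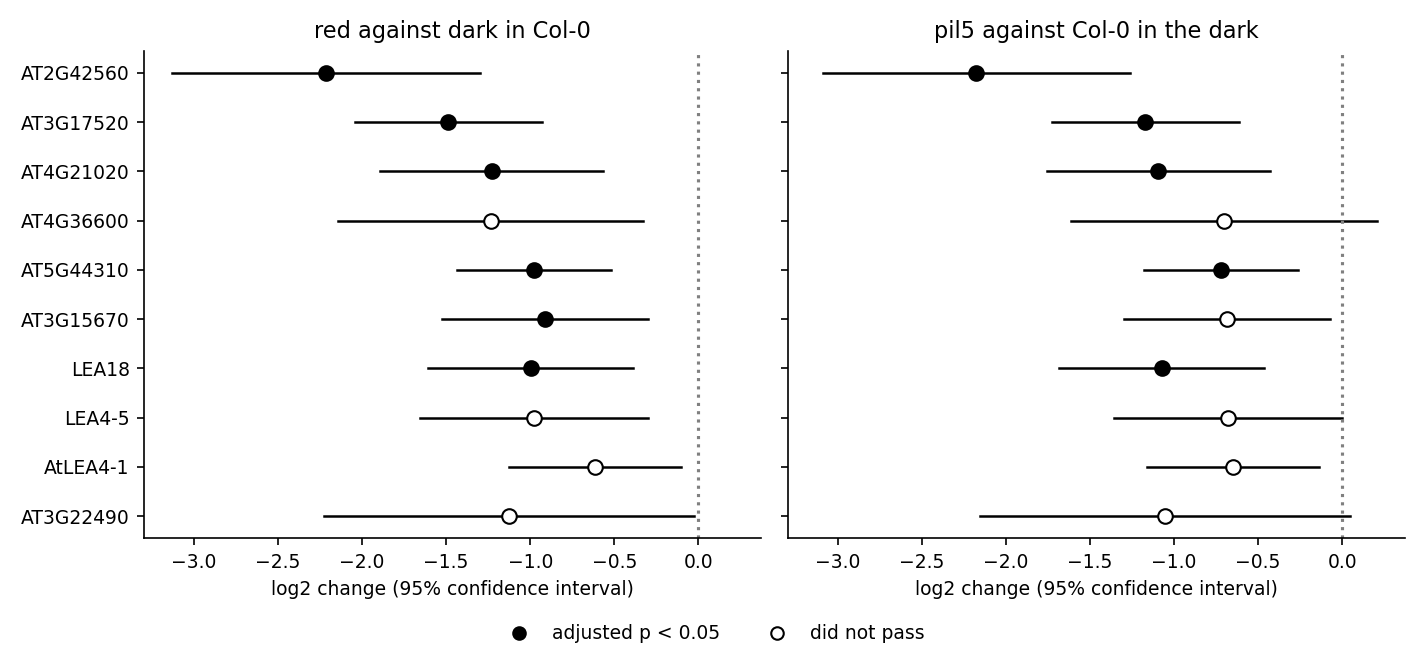
The log2 change of each LEA gene for red against dark in Col-0 (left) and for pil5 against Col-0 in the dark (right), with 95% confidence intervals from limma over all 12 arrays; filled points passed at adjusted p below 0.05. All points lie below 0, with AT2G42560 at -2.21 and -2.18 the lowest in both panels.

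The count of 5 was 3 without pil5 red 2, pil5 dark 1, any 1 Col-0 red array or Col-0 dark 3. In these fits 3.94% to 6.94% of all probe sets were called lower. The count was 2 without pil5 dark 3 (2.57%) and 1 without Col-0 dark 1 (2%) or Col-0 dark 2 (1.48%). Without pil5 red 3 it was 8 (8.68%). AT2G42560 passed without any 1 array (adjusted p up to 0.048). The call of AT3G17520 ended without Col-0 dark 1 or 2 (adjusted p up to 0.074), and that of LEA18 ended also without pil5 dark 3 (up to 0.11). The calls of AT4G21020 and AT5G44310 each ended without 1 of 9 arrays (up to 0.15 and 0.18).

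The third comparison asked whether red light still lowered LEA transcripts without PIL5. In pil5, 0 of the 10 LEA genes passed in limma, 0 had an unadjusted p below 0.05, and 0 passed with the block. Among all probe sets 0 were called (0%), and 267 had an unadjusted p below 0.05 (1.17%), and the blocked fit also called 0%. The 10 log2 changes ran from 0.23 for AT3G15670 to 0.58 for AT4G21020, with a median of 0.46, and all were above 0.

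In pil5 the pair of replicate number 3 gave the largest differences. The median red difference of the 10 genes in pil5 was -0.14, 0.10 and 1.51 in numbers 1, 2 and 3, and in Col-0 it was -1.27, -1.19 and -0.78. AT4G21020 read 11.45, 11.80 and 12.21 on the pil5 red arrays, against 11.50, 11.74 and 10.48 on the pil5 dark arrays. The pairs of numbers 1 and 2 thus differed by -0.05 and 0.07, and the pair of number 3 by 1.73.

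AT2G42560 read 8.39, 8.96 and 10.16 on the pil5 red arrays, with differences from pil5 dark of -0.14, -0.08 and 1.64. LEA18 read 12.72, 13.03 and 13.71, with differences of -0.29, 0.05 and 1.59. AT3G17520 read 12.01, 12.30 and 12.78, with differences of -0.15, 0.14 and 1.43. The third pil5 red array was the highest of its group in 10 of 10 genes, with the share over all probe sets not taken. For LEA4-5, AT3G22490 and AT3G15670 it lay above every Col-0 dark array, at 13.36, 10.19 and 13.50.

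Part of the gap in number 3 lay on the dark side. The third pil5 dark array was low for AT4G21020, LEA18 and AtLEA4-1, which on that array had their lowest values of all 12. Without the third pil5 red array the median red change of the 10 in pil5 was 0.18, with AT4G36600, AT3G22490, AT3G15670 and AT2G42560 at -0.0075, -0.14, -0.17 and -0.0233. Small heat shock protein genes, which many stresses induce, were high on the arrays of number 3. Of 16 listed, 7 were measured, and their median red difference in pil5 was -0.10, -0.17 and 1.38 in numbers 1, 2 and 3. In 6 of the 7 the third array was the highest of its group in all 4 groups, and in 6 the third pil5 red array was the highest of all 12. Their part in the LEA values was not tested.

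**Figure D3:**
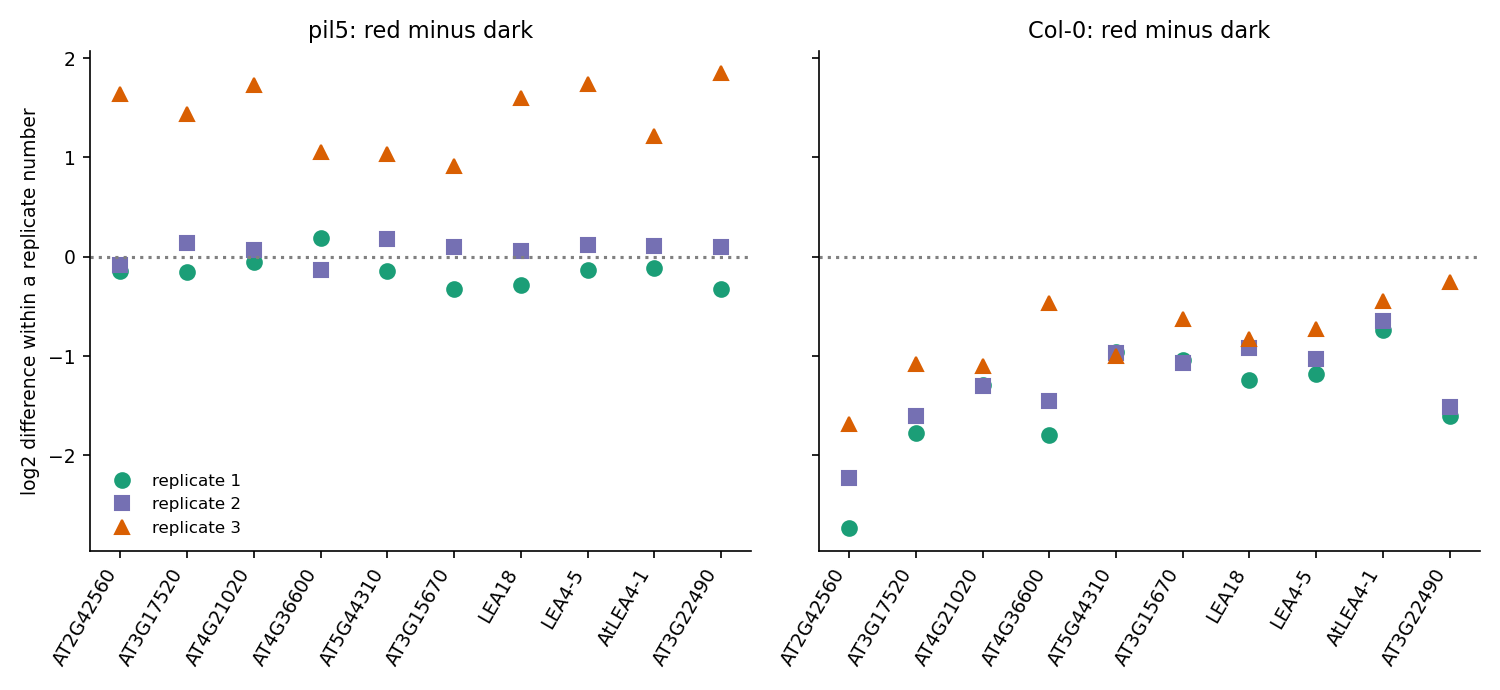
The log2 difference of red minus dark within each replicate number, for each LEA gene, in pil5 (left) and in Col-0 (right). In Col-0 all differences are below 0, and in pil5 those of numbers 1 and 2 lie between -0.33 and 0.19 while those of number 3 lie between 0.91 and 1.85.

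The difference between the red responses of the 2 genotypes was tested as the interaction, the red change in pil5 minus the red change in Col-0. It passed for 4 of the 10 LEA genes, all above 0, where 3.12% of all probe sets were called above 0. Without the dimmest 50% of probe sets this share was 7.61%. All 10 had an unadjusted p below 0.05, against 21.2% of all probe sets. The 4 were AT2G42560 at 2.69 (SE 0.59, adjusted p = 0.029), AT3G17520 at 1.96 (SE 0.36, adjusted p = 0.019), AT4G21020 at 1.81 (SE 0.42, adjusted p = 0.034) and AT5G44310 at 1.33 (SE 0.29, adjusted p = 0.029). All 4 are LEA_4 genes. The other 6 ran from 1.01 for AtLEA4-1 to 1.67 for AT3G22490, with LEA18 at 1.45 (adjusted p = 0.053) and LEA4-5 at 1.55 (adjusted p = 0.060) just outside the threshold.

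Blocked on replicate number, the interaction passed for 9 of the 10, against 8.74% of all probe sets, with AT3G22490 outside (adjusted p = 0.069). It was above 0 in every replicate number for all 10, as for AT2G42560 (2.59, 2.14 and 3.33), AT3G17520 (1.62, 1.74 and 2.51), AT4G21020 (1.24, 1.37 and 2.82) and AT5G44310 (0.82, 1.15 and 2.03). These values come from the same arrays as the test, and the share of all probe sets above 0 in every number was not taken. Without pil5 red 3 there were again 4 calls (2.87% of all probe sets), those of AT2G42560 at 2.19, AT3G17520 at 1.75, AT5G44310 at 1.19 and LEA4-5 at 1.16, while AT4G21020 had adjusted p = 0.055. With the block and without that array 9 passed.

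The interaction count was 7 without pil5 red 1, where 4.97% of all probe sets were called above 0. It was 2 without pil5 red 2, pil5 dark 3, Col-0 red 2 or Col-0 red 3 (1.61%, 1.14%, 1.28% and 1.23%). It was 1 without pil5 dark 1 (0.62%). It was 0 without Col-0 red 1, Col-0 dark 1 or Col-0 dark 2 (0.149%, 0.374% and 0.163%). In those last 3 fits limma gave 9, 9 and 8 of the 10 an unadjusted p below 0.05. The share of all probe sets reaching it in those fits was not taken. In the fit over all 12 arrays it was 21.2%. Each of the 4 calls ended without at least 3 of the 12 arrays taken singly, with adjusted p up to 0.084, 0.063, 0.10 and 0.089 for AT2G42560, AT3G17520, AT4G21020 and AT5G44310.

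After red, pil5 seeds had higher mean LEA signals than Col-0 seeds, but 0 of the 10 passed in limma, and 0 in the blocked fit, which called 8.27% of all probe sets. An unadjusted p below 0.05 was reached by 4 of 10, where 12% of all probe sets reached it and 0.193% were called. The 4 were AT3G17520 at 0.79 (SE 0.25, adjusted p = 0.24), AT5G44310 at 0.61 (SE 0.21, adjusted p = 0.27), LEA4-5 at 0.87 (SE 0.31, adjusted p = 0.28) and AT4G21020 at 0.72 (SE 0.30, adjusted p = 0.37). In these 4 every pil5 red array lay above every Col-0 red array, which held for 7.9% of all probe sets. The median of the 10 was 0.61, and 0.36 without pil5 red 3, and within replicate numbers 1, 2 and 3 it was 0.39, 0.41 and 1.07.

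The mutant in the dark and the wild type after red had close LEA levels. Of the 10 genes 0 passed between pil5 dark and Col-0 red in limma, where 0.448% of all probe sets were called. Of the 10, 0 had an unadjusted p below 0.05 (11.3% of all probe sets) and 0 passed in the blocked fit (7.73%). The changes ran from -0.08 for LEA18 to 0.53 for AT4G36600, with a median of 0.18. The 95% intervals still allowed sizeable differences, such as -0.88 to 0.95 for AT2G42560 and -0.24 to 0.87 for AT3G17520. In numbers 1, 2 and 3 the median difference was 0.52, 0.31 and -0.48.

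The 4 groups kept nearly the same order of mean levels in all 10 genes. Col-0 dark was highest and pil5 red next in 10 of 10. Without the third pil5 red array Col-0 dark was still highest in 10, and pil5 red was next in 6. Col-0 red was lowest in 8, and pil5 dark was lowest in AtLEA4-1 and LEA18. Of the neighbours in that order, pil5 red did not differ from pil5 dark, nor pil5 dark from Col-0 red, beyond the spread of the arrays in any of the 10. In AtLEA4-1 and LEA18 the neighbours pil5 red and Col-0 red also overlapped. The pil5 red arrays overlapped with the Col-0 dark arrays in 8 of 10 and lay wholly below them in AT2G42560 and AT3G17520, as did 11.1% of all probe sets. With the arrays pil5 red 1 and 2 alone, 9 of 10 lay wholly below (21.6% of all probe sets) and AT4G36600 alone overlapped.

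The range of the group means was widest for AT2G42560, at 2.21, and narrowest for AtLEA4-1, at 0.65. The spread within groups differed too: the pooled SD was 0.28 for AT5G44310 and 0.31 for AtLEA4-1, against 0.57 for AT4G36600 and 0.70 for AT3G22490. In Col-0 red the first array was the lowest of its group in 10 of 10 genes. In Col-0 dark the second array was the highest in 9 of 10. The shares of all probe sets with these orders were not taken, so the orders may not be particular to the LEA genes. After centring each gene on its own mean, AT3G17520 had the profile closest to the mean of the 10 (root mean square difference 0.17 over 12 arrays) and AT2G42560 the farthest (0.54).

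Other LEA genes were taken from the published Arabidopsis family. Of 41 listed, 25 had a probe set, 6 were lower after red in Col-0, 0 were higher and 19 did not pass (7.33% of all probe sets were called lower), with a median change of -0.20. The blocked fit called 8 lower and 2 higher, against 13.1% and 13.4% of all probe sets. The lower ones were AT3G53040 (-1.72, SE 0.30) and AT1G72100 (-1.61, SE 0.28) of the LEA_4 class, the dehydrins LEA (AT2G21490, -1.52, SE 0.35) and AT4G39130 (-1.37, SE 0.33), and the PvLEA18-type genes AT2G23110 (-1.11, SE 0.22) and AT2G23120 (-0.88, SE 0.26). AT4G39130, AT2G23110 and AT2G23120 are named after their values were seen. Dehydrins are LEA proteins that bind membranes and water during cold and drought. In pil5 in the dark 3 of the 25 were lower and 0 higher (6.01% and 6.08% of all probe sets), namely AT1G72100 (-1.49, SE 0.28), LEA (-1.49, SE 0.35) and AT2G23110 (-0.78, SE 0.22), and the blocked fit called 9 lower (12.2% of all probe sets).

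AT3G53040 had mean levels in both pil5 groups nearer to Col-0 dark than to Col-0 red. A difference between this gene and the 10 was not tested. It read 11.48, 12.05 and 12.18 on the pil5 red arrays, 11.63, 11.94 and 11.26 on the pil5 dark arrays, 9.69, 10.12 and 10.82 on the Col-0 red arrays and 11.58, 12.01 and 12.19 on the Col-0 dark arrays. Only the Col-0 red arrays were low. Its change in pil5 in the dark was -0.32 (SE 0.30, adjusted p = 0.60), and in pil5 after red it was 1.69 (SE 0.30, adjusted p = 0.061, blocked 0.0038). pil5 dark lay 1.40 above Col-0 red (SE 0.30, adjusted p = 0.079, blocked 0.0087).

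AT1G72100 and the dehydrin LEA followed the pattern of the 10 more closely. AT1G72100 averaged 10.29 ± 0.48 in pil5 red, 9.77 ± 0.47 in pil5 dark, 9.65 ± 0.31 in Col-0 red and 11.26 ± 0.24 in Col-0 dark (SD, n = 3 each). LEA averaged 12.22 ± 0.81, 11.73 ± 0.36, 11.69 ± 0.29 and 13.21 ± 0.28 in the same groups. The interaction passed for 5 of the 25, all above 0 (3.12% of all probe sets): AT1G72100 (2.12, SE 0.40), AT3G53040 (2.01, SE 0.42), LEA (2.01, SE 0.49), AT4G39130 (1.81, SE 0.47) and AT2G23110 (1.36, SE 0.31). The blocked fit called 8 above 0 and 1, COR47, below 0, against 8.74% and 8.73% of all probe sets.

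The following LEA genes are named after their values were seen. DI21, which passed only in the blocked fit, had a red change in Col-0 of 0.36 (SE 0.11, adjusted p = 0.061, blocked 0.023). COR47, a dehydrin induced by cold, read 9.55, 9.01 and 8.40 on the Col-0 red arrays and 8.52, 7.81 and 7.47 on the Col-0 dark arrays, a change of 1.06 (SE 0.66, adjusted p = 0.37, blocked 0.026). The dehydrin AT1G54410 (HIRD11) had 0.51 for red in Col-0 (SE 0.34, adjusted p = 0.41) and -1.03 for pil5 in the dark (SE 0.34, adjusted p = 0.075, blocked 0.032). In the blocked fit M10 was also lower for red in Col-0 (-0.68, SE 0.26, adjusted p = 0.12, blocked 0.012). The dehydrin LTI30 had -0.88 (SE 0.81, adjusted p = 0.60, blocked 0.026) for red in Col-0, with differences of -0.76, -1.09 and -0.79 by number against levels that varied widely between numbers.

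Of the 25, 10 had a mean below 6.22, the mean of the array medians, and 0 of these passed in any comparison, with 1 lower in the blocked fit for pil5 in the dark. Their changes for red in Col-0 ran from -0.45 to 0.24. All 6 calls came from the 15 brighter ones, whose median change was -0.88. Calls were also more frequent among brighter probe sets in general: 7.33% of all were called lower, and 14.8% without the dimmest 50%. The dim ones included COR15A and COR15B, chloroplast proteins that protect membranes in the cold, with values of 3.95 to 4.30 and 4.47 to 4.89 on all arrays. In the RefSeq annotation these genes lie side by side on chromosome 2. COR15A, the nearer of them, is separated from AT2G42560, the gene with the largest fall, by 1 protein-coding gene.

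**Figure D4:**
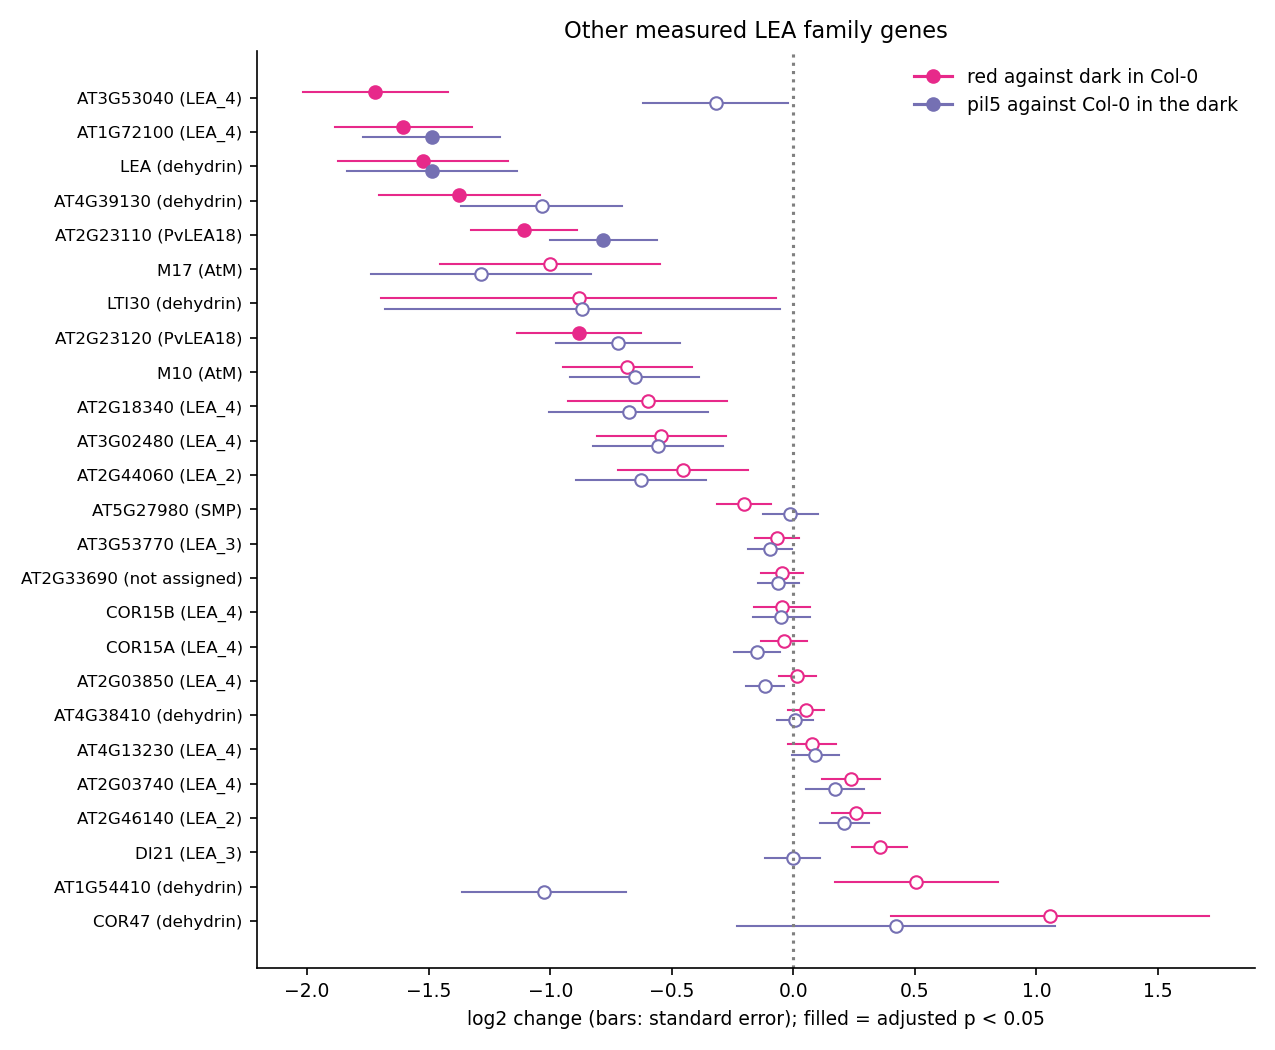
The log2 changes of the 25 other measured LEA family genes for red against dark in Col-0 and for pil5 against Col-0 in the dark, with standard errors, ordered by the red change and labelled with their class; filled points passed at adjusted p below 0.05. AT3G53040 is lowest for red at -1.72 and lies at -0.32 for pil5 in the dark.

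Seed reserve and ABA genes of lists that bear on LEA expression were thinly covered. The oleosin OLEO3, an oil body coat protein, read 9.41, 9.49 and 8.75 on the pil5 dark arrays and 10.14, 10.19 and 9.80 on the Col-0 dark arrays, a change of -0.83 (SE 0.22, adjusted p = 0.032). For red in Col-0, OLEO3 had -0.68 (adjusted p = 0.058), AT3G01570 -0.93 (adjusted p = 0.068) and the cruciferin-type storage protein gene AT1G03890 -1.07 (adjusted p = 0.084). Each of these 3 was lower in the blocked fit, as were 13.1% of all probe sets. In pil5 in the dark AT3G01570 had -0.80 (adjusted p = 0.13, blocked 0.026) and AT1G03890 -1.07 (adjusted p = 0.096, blocked 0.015). The blocked fit called 12.2% of all probe sets lower there. AT3G01570 and AT1G03890 are named after their values were seen. Of 19 listed ABA regulators EEL and XERICO were measured, and both fell in Col-0 after red and in pil5 in the dark. For red in Col-0 the changes were -1.72 for EEL (SE 0.50, adjusted p = 0.041) and -2.43 for XERICO (SE 0.38, adjusted p = 0.0032). In pil5 in the dark the changes ran from -2.37 to -1.90. Of all probe sets 7.33% and 6.01% were called lower in these comparisons, and 14.8% and 12% without the dimmest 50%. EEL, a bZIP factor that binds LEA gene promoters, averaged 6.97 in pil5 red, 6.14 in pil5 dark, 6.80 in Col-0 red and 8.52 in Col-0 dark. Of 11 ABA metabolism genes and 10 raffinose and galactinol genes 0 were measured, and of 7 measured small heat shock genes 0 passed in Col-0 after red (1 with the block, higher; 1 at an unadjusted p below 0.05).

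Of 13276 other genes, the 5 whose centred profiles over the 12 arrays lay closest to the mean of the 10 LEA genes were AT3G01400, GSTU16 (AT1G59700), AT2G44310, AT4G27657 and AT5G63190. Their root mean square differences from it were 0.12, 0.12, 0.13, 0.14 and 0.15, against a median of 0.58 over all genes searched. As the 5 were chosen for the smallest differences, values below that median were fixed by the choice. The 10 LEA genes themselves ran from 0.17 to 0.54. GSTU16 is a tau-class glutathione transferase. It averaged 8.16 in pil5 red, 7.69 in pil5 dark, 7.59 in Col-0 red and 8.84 in Col-0 dark. All 5 profiles share the arrays with the LEA genes, including the high values on the third pil5 red array, and none of the 5 is a listed LEA gene.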

How the data were processed

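The deposited table holds log2 signals of 22810 probe sets on 12 arrays, normalized across arrays by the authors, as its nearly equal column quantiles show. Per the submitters' processing notes MAS5 5.0 and RMA were used, with roles not given in the sources used here. The values were used as deposited, without 64 control probe sets. In the supplied annotation 13513 of the other 22746 probe sets had 1 gene, 503 several and 8730 none, and RefSeq gave the names of 13436.

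limma 3.58.1 under R 4.3.3 fitted a mean for each group over all 12 arrays, with eBayes, two-sided tests and Benjamini-Hochberg adjustment over all probe sets at 0.05. Figures were drawn with matplotlib 3.10.9. The fit was tried on simulated data with independent noise on each array, so that trial does not cover the joint deviations of same-numbered arrays given below. The LEA genes and all lists were chosen with earlier results of these data known, the LEA classes after the files were seen. The named genes are the 10 LEA genes, up to 3 called members of a list and the 5 genes of closest profile. Other genes of the lists, markers included, are named after their values were seen. Promoter and protein sequences were not used here.

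Same-numbered arrays of different groups deviated together (r from 0.175 to 0.709, against -0.677 to 0.407 for other pairs, and 11 of 12 arrays correlated best with their own number), so the fit with the replicate number as a block is given where it changed a call of the 10 LEA genes, and as counts for the other LEA genes. What the number marks is not stated. Alternatives changed the normalization (quantile, or centring on medians), the filter (without the dimmest 25% or 50% of probe sets, or with 1 probe set per gene), the model (the block, array weights, a trended robust eBayes, only the arrays compared), the threshold (a 2-fold minimum) and the arrays, each left out in turn.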

Additional observations from a re-analysis of the deposited data

Results flagged for a closer look

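The red response differed between pil5 and Col-0 in 4 LEA genes, by the interaction test over all 12 arrays. That test placed 3.12% of all probe sets above 0, or 7.61% once the dimmest 50% were dropped. These calls rested on single arrays: removing 1 array at a time gave counts between 0 and 7. Even AT3G17520, which kept its call most often among the 4, lost it in 3 of these fits. The interaction was 2.69 for AT2G42560, 1.96 for AT3G17520, 1.81 for AT4G21020 and 1.33 for AT5G44310 on the log2 scale. Groups of 3 arrays were not searched gene by gene for outlying values.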

How the results depend on the processing

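Counts of called LEA genes changed by more than 1.5 times in these cases, given with the share of all probe sets called in the same direction. For red in Col-0 (6) the count was 10 with only the arrays compared (8.78%), 10 with array weights (16.3%), 3 with the 2-fold minimum (2.04%) and 10 with the replicate block and pil5 red 3 left out (17%), a setting chosen after seeing the data. With single arrays left out it was 2 to 9 (3.14% to 10.1%). For pil5 in the dark (5) it was 8 with array weights (14.8%) and 10 with the block and pil5 red 3 left out (16.7%). It was 1 to 8 with single arrays left out (1.48% to 8.68%). For the interaction (4) it was 9 with the replicate block (8.74%), 10 with array weights (11.5%) and 9 with the block and pil5 red 3 left out (9.25%). It was 0 to 7 with single arrays left out (0.149% to 4.97%). For pil5 after red (0) it was 4 with array weights (6.37%), and for pil5 dark against Col-0 red (0) it was 1 with array weights (6.12%). The cause was not tested. The interaction uses all 12 arrays and has no separate value with only the arrays compared. The block changed the calls given in the report for red in Col-0 and for the interaction, and no other call of the 10 genes. For red in Col-0, pil5 in the dark and the interaction 0 of the 10 genes changed sign under any alternative.

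Signs turned only for values that did not pass. With the block and pil5 red 3 left out, red in pil5 was -0.0693 for AT4G36600, -0.0402 for AT3G22490 and -0.15 for AT3G15670, and pil5 after red was -0.0433 for LEA18. For pil5 dark against Col-0 red, AtLEA4-1 had 0.0216 with median centring and 0.26 with array weights, and LEA18 had 0.12 with array weights. With single arrays left out, red in pil5 ran from -0.0233 to 0.86 for AT2G42560, -0.17 to 0.52 for AT3G15670, -0.14 to 1.05 for AT3G22490 and -0.0075 to 0.72 for AT4G36600. In pil5 after red AT3G22490 ran from -0.0694 to 1.12. For pil5 dark against Col-0 red the ranges were -0.30 to 0.34 for AT2G42560, -0.19 to 0.42 for AT3G22490, -0.11 to 0.52 for AT4G21020, -0.24 to 0.26 for AtLEA4-1 and -0.23 to 0.22 for LEA18. With 3 arrays a group, single arrays decide many calls.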
